A study of Homo sapiens with 16 samples.

Results

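The gene set described here holds 48 genes of the G2 phase, the kinetochore and mitosis. They were chosen by name from textbook roles, with earlier results of these data known. They stand among 44591 gene rows counted in the line NCI-H1688, derived from a human small cell carcinoma of the lung. RNA-seq was done on 16 libraries in 8 groups of 2 biological duplicates, and all treated cells were exposed for 24 h. A first table of counts held the control, sanguinarine chloride (1 µM), cepharanthine (3 µM) and evodiamine (3 µM), which are plant alkaloids. The second held JQ1 (28 µM, an inhibitor of BET bromodomain proteins), panobinostat (60 nM, a histone deacetylase inhibitor) and each of these together with sanguinarine (1 µM). The control libraries carry the label untreated, while the design text names a DMSO group, and which applies cannot be told from these sources. All 48 genes passed the filter on low counts that left 22263 genes for testing.

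Mitosis is set in motion by CDK1, a kinase that is active only when bound to a cyclin A or cyclin B subunit and stripped of inhibitory phosphates by CDC25 phosphatases. The spindle checkpoint holds the anaphase-promoting complex (APC/C, a ubiquitin ligase) in check until every kinetochore, the protein plate on each centromere, is bound by microtubules. The APC/C with CDC20 then marks securin and cyclin B for destruction, separase cuts cohesin, and the cell divides. Many of these genes are transcribed late in the cell cycle. Their promoters often hold a cell cycle genes homology region (CHR, usually TTTGAA), bound by the MuvB core together with MYBL2 or FOXM1, and CCAAT boxes bound by NF-Y. In bulk RNA, a smaller share of cells in G2 and mitosis cannot be told apart from less RNA of these genes per cell.

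The promoters of 6 members are printed as examples of genes that fell or rose with evodiamine, as described below. They were chosen after the values were seen and are not the 6 largest changes, CDC20 having the smallest of the 9 rises. Each is the run of 250 bases before the RefSeq transcription start, read 5′ to 3′ on the gene's strand of GRCh38.p14. Capitals mark the letters TTTGAA or TTCGAA and CCAAT, on either strand (TTCAAA and ATTGG when read from the other one). Where CCAAT and ATTGG overlap, as in HMMR, only the first is in capitals. CDK1, TOP2A and CKS1B fell with evodiamine, and CKS2, HMMR and CDC20 rose. The windows are chr10:60778228-60778477 (plus strand) for CDK1, chr17:40417897-40418146 (minus) for TOP2A, chr1:154974431-154974680 (plus) for CKS1B, chr9:89310945-89311194 (plus) for CKS2, chr5:163460382-163460631 (plus) for HMMR and chr1:43358731-43358980 (plus) for CDC20. CDK1 has 2 entries in the table, and the window of the one with more of these letters is shown. The other held TTTGAA 161 bases and CCAAT 150 bases before its own start.
CDK1: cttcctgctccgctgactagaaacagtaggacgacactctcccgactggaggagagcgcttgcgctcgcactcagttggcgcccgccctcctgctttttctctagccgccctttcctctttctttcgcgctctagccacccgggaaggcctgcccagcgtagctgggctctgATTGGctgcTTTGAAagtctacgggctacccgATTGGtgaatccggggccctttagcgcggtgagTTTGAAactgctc
TOP2A: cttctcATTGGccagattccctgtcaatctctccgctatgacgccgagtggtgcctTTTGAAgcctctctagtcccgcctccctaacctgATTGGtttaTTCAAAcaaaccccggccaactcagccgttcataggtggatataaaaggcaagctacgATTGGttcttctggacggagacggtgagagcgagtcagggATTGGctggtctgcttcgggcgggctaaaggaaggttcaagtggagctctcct
CKS1B: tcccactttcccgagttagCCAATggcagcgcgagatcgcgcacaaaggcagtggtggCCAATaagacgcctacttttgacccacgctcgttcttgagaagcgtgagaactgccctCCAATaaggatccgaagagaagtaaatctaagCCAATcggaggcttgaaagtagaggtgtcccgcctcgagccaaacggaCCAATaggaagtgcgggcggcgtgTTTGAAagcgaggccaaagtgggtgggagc
CKS2: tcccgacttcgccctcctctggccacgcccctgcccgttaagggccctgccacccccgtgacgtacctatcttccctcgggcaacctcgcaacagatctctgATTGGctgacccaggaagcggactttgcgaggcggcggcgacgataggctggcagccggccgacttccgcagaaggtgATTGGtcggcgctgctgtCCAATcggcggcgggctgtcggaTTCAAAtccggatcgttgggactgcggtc
HMMR: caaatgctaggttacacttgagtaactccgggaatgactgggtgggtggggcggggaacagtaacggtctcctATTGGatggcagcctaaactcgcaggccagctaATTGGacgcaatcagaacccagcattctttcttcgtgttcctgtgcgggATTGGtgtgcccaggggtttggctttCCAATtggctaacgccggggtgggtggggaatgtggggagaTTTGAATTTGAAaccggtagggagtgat
CDC20: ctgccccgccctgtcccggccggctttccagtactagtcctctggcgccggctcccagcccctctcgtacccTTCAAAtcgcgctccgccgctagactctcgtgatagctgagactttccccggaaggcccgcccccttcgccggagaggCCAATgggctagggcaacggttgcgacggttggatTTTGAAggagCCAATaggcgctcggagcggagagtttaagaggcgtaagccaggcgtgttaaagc

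All 6 windows held both kinds of letters. In the CDK1 entry shown the TTTGAA nearest the start began 13 bases before it. In CKS2 it began 29 bases before the start on the other strand and in CKS1B 30 bases before it. RefSeq entries were found for 42 members, and AURKA, BIRC5, FOXM1, TPX2, TTK and UBE2C had none in the table used. The search ran over both strands, and overlapping matches on opposite strands counted once. Of the 42 promoters, 26 held TTTGAA (61.9%, against 16.1% of 27305 genes with an entry), 3 held TTCGAA (7.14%, against 1.5%) and 35 held CCAAT (83.3%, against 37.0%). Among members that fell with evodiamine, 13 of 17 held either CHR form (17.2% of all genes did) and 14 of 17 held CCAAT. For members that rose, these counts were 5 of 8 and 8 of 8, and for those that did not pass the test 9 of 17 and 13 of 17. When the search took in the 50 bases after the start, either CHR form stood in 14 of 17 members that fell, 5 of 8 that rose and 14 of 17 that did not pass, against 19.5% of all genes, so the count did not differ between members that fell and those that did not pass. The match of letters is a description and does not show that a factor binds there.

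Per transcript length, CDC20 stood highest among the members in the control, at 177 ± 3.75 RPKM (reads per kilobase of transcript, scaled to library depth; SD, n = 2), followed by PLK1 at 121 ± 1.65, CCNB1 at 114 ± 2.23 and TPX2 at 113 ± 1.43. CCNB1 and TPX2 differed by less than the spread between their libraries. CDC25C was lowest at 4.03 ± 0.0697, with BORA at 4.94 ± 0.758 and HMMR at 10.3 ± 0.142. Every sample value below is in CPM (reads of the gene scaled to the library's total count), and every change is a log2 difference with its standard error, n = 2 in each group.

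Libraries held between 39996881 and 64060919 counted reads. The 48 genes took 0.726% and 0.739% of the reads in the control libraries. Sanguinarine libraries gave them 0.472% and 0.462%, cepharanthine libraries 0.662% and 0.693%, and evodiamine libraries 0.644% and 0.621%. Their share in the second table was 0.369% and 0.38% for JQ1 and 0.379% and 0.378% for panobinostat. It was 0.332% and 0.311% when sanguinarine accompanied JQ1, and 0.272% and 0.347% when it accompanied panobinostat. The duplicates of this last group stood apart: their members differed by a median of 0.461 on the log2 scale, against 0.047 to 0.126 in the other 7 groups. CDK1, for example, was at 43.8 and 78.7 CPM in them. Results that rest on this group are given without one of these libraries where that changes a call. All 5 epithelial markers were expressed in every group (summed level 4111 to 9159 CPM). The neuroendocrine markers that define most small cell lung cancers were nearly absent from the first table (summed 1.34 to 2.35 CPM), with NEUROD1 at 0 reads in all 16 libraries, and summed to 7.54 to 143 CPM in the second. Of 5 fibroblast and 5 immune markers 2 and 1 (CD68) passed 1 CPM in any library. The part of these shifts in the results was not tested.

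**Figure D1:**
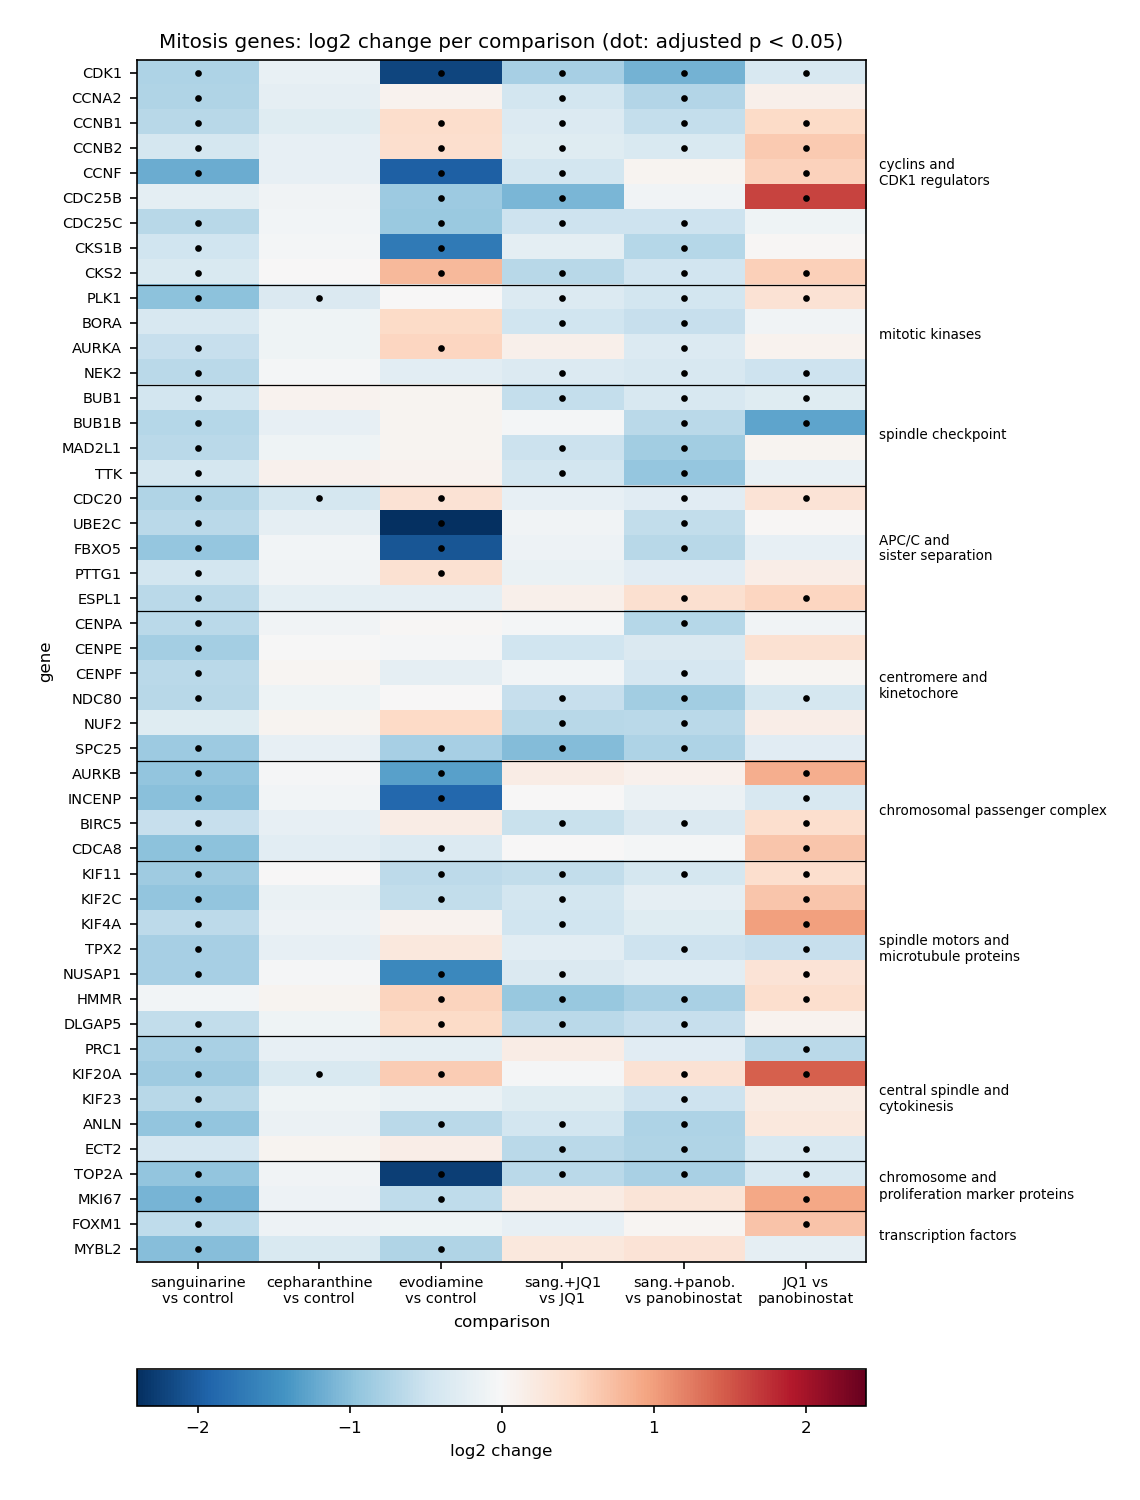
Log2 change of each of the 48 genes (vertical axis, grouped by role) in 6 comparisons (horizontal axis); colour gives the log2 change from −2.4 (blue) to 2.4 (red), and a dot marks an adjusted p under 0.05. The sanguinarine column is blue in all 48 rows (HMMR turns to 0.08 under scaling by library totals), while the evodiamine column holds the deepest blues (UBE2C, −2.39) beside reds such as CKS2 (0.78).

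Sanguinarine lowered nearly the whole set. Of the 48 members, 43 fell, against 10.3% of all genes tested that fell, and the other 5 had changes below 0 that did not pass, HMMR turning to 0.08 when libraries were scaled by their totals alone. Their median change was −0.67, where that of all genes was close to 0. The fall was moderate in size, since 3 members (CCNF, MKI67 and MYBL2) fell by more than 2-fold. It reached every role, from 8 of 9 cyclins and CDK1 regulators to 4 of 4 spindle checkpoint genes, 5 of 6 centromere and kinetochore genes and 4 of 4 members of the chromosomal passenger complex.

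CCNF, the cyclin F subunit of a ubiquitin ligase, stood at 92.6 and 92.7 CPM in the control and 44.5 and 44.1 with sanguinarine. It fell by 1.20 ± 0.12 (adjusted p = 1.02e-06, edgeR's quasi-likelihood test with Benjamini-Hochberg adjustment). MKI67, the proliferation marker Ki-67 that coats mitotic chromosomes, went from 1025 and 1053 to 521 and 535 CPM, a change of −1.11 ± 0.12 (adjusted p = 1.87e-06, edgeR). Both sanguinarine libraries lay below both controls for each of the 5 members that fell most. Here and below, such a lack of overlap adds no support, because the largest called changes were picked from the same libraries. The transcription factor MYBL2, which acts with MuvB on these promoters, was at 221 and 198 CPM in the control and 114 and 111 with the drug, a change of −1.03 ± 0.11 (adjusted p = 2.06e-06, edgeR). INCENP, the scaffold of the chromosomal passenger complex, changed by −1.0 ± 0.12, from 214 and 204 to 113 and 117 CPM (adjusted p = 6.67e-06, edgeR). PLK1, the polo-like kinase of mitotic entry and spindle assembly, changed by −0.99 ± 0.09, from 279 and 274 to 154 and 152 CPM (adjusted p = 2.04e-07, edgeR). KIF23, a motor of the central spindle at the median of the set, went from 144 and 143 to 101 and 96.4 CPM (−0.67 ± 0.14, adjusted p = 0.00152, edgeR).

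The chromosomal passenger complex, which corrects wrong attachments of chromosomes to the spindle, fell as a whole with sanguinarine. Its kinase AURKB changed by −0.94 ± 0.10 (81.2 and 85.5 to 46.3 and 49.0 CPM), CDCA8 (borealin) by −0.98 ± 0.11 (92.4 and 98.1 to 55.1 and 51.2 CPM) and BIRC5 (survivin) by −0.55 ± 0.09 (161 and 162 to 119.9 and 123 CPM). Its members were lower in both treated libraries than in either control. The 4 spindle checkpoint genes fell too, BUB1B (BubR1) by 0.69 ± 0.11, MAD2L1 by 0.65 ± 0.13, BUB1 by 0.45 ± 0.11 and the kinase TTK (MPS1) by 0.43 ± 0.14. Whether these falls differ in size between roles was not tested. Among markers of other cell types, the summed level of 3 endothelial markers was 19.3 and 19.5 CPM in the control and 4.79 and 4.99 with sanguinarine. Nearly all of it was CDH5, at 19.2 and 19.1 CPM in the control and 4.75 and 4.45 with sanguinarine. PECAM1 and VWF stayed under 1 CPM in both groups, so the list shows no shared fall. The part of CDH5 in the result was not tested. The 5 members that did not pass were HMMR, CDC25B, NUF2, BORA (an activator of AURKA and PLK1) and ECT2 (an exchange factor of cytokinesis). HMMR, a spindle protein, stood at 32.0 and 32.6 CPM in the control and 35.3 and 32.8 with sanguinarine, a difference with a 95% interval of −0.38 to 0.26. For NUF2, which pairs with NDC80 in the outer kinetochore, the interval was −0.64 to 0.04, while NDC80 itself fell by 0.67 ± 0.14. Of 83 further mitosis genes in a list of condensins, cohesins, kinetochore and APC/C parts, 55 fell and the other 28 did not pass. ZWINT, a kinetochore protein, fell most, by 1.21 ± 0.11 (adjusted p = 1.14e-07, edgeR), followed by the centromere protein CENPM at −1.08 ± 0.17.

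Cepharanthine left most of the set near the control level. Only CDC20, KIF20A and PLK1 passed, all lower, 3 of 48 against 0.961% of all genes, and the median change was −0.11. CDC20, the APC/C activator, was at 301 and 292 CPM in the control and 233 and 216 with cepharanthine (−0.43 ± 0.09, adjusted p = 0.00756, edgeR). KIF20A, a motor of the central spindle, was at 76.8 and 79.5 and 61.3 and 63.1 CPM (−0.36 ± 0.09, adjusted p = 0.0377, edgeR), and PLK1 at 279 and 274 and 235 and 209 (−0.35 ± 0.09, adjusted p = 0.0363, edgeR). Among the 3 genes the cepharanthine libraries did not overlap the controls, though the gaps were small. Leaving out any single control or cepharanthine library left at most 1 of these calls, and a fit of the first table alone made 15, all lower. NDC80, at the median, changed by −0.11 ± 0.14 with an interval of −0.40 to 0.18. Of the 83 other mitosis genes 0 passed in edgeR, 12 had an unadjusted p under 0.05, and 6 passed in DESeq2.

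Evodiamine split the set. It lowered 18 members, some of them 4-fold or more, and raised 9 others by less than 2-fold, against 6.13% and 5.3% of all genes tested. The 9 rises were CCNB1, CCNB2, CKS2, AURKA, CDC20, PTTG1, HMMR, DLGAP5 and KIF20A. The remaining 21, among them all 4 spindle checkpoint genes, did not pass, so the median of the 48 was −0.07. Leaving out any single control or evodiamine library gave 15 to 17 falls but only 2 or 3 rises.

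UBE2C, the ubiquitin-conjugating enzyme that serves the APC/C, stood at 119 and 118 CPM in the control and 22.7 and 24.2 with evodiamine. It fell by 2.39 ± 0.09 (adjusted p = 3.91e-12, edgeR). TOP2A, the topoisomerase that untangles sister chromatids, went from 395 and 419 to 86.9 and 90.5 CPM (−2.25 ± 0.12, adjusted p = 6.90e-10, edgeR). CDK1 itself went from 98.5 and 99.8 to 22.0 and 22.5 CPM (−2.21 ± 0.16, adjusted p = 2.10e-08, edgeR). The treated libraries of each of these 3 genes lay far below the controls, with a small spread between them. FBXO5 (EMI1), the inhibitor of the APC/C, changed by −2.05 ± 0.14, from 35.5 and 37.5 to 8.85 and 9.51 CPM (adjusted p = 8.15e-09, edgeR). CCNF changed by −1.96 ± 0.13, from 92.6 and 92.7 to 24.6 and 24.9 CPM (adjusted p = 5.47e-09, edgeR). INCENP (−1.89), CKS1B (−1.70), NUSAP1 (−1.54) and AURKB (−1.30) also fell by more than 2-fold.

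Related members moved in opposite directions with evodiamine. Most of the rises did not pass when any single control or evodiamine library was left out, as given above. Whether CCNB1 and CCNB2 were among those lost was not followed gene by gene. CDK1 fell, while its cyclins CCNB1 (245 and 252 CPM in the control, 349 and 348 with evodiamine) and CCNB2 (89.7 and 93.2 and 126 and 125 CPM) rose by 0.43 ± 0.10 and 0.40 ± 0.10, and CCNA2 changed by 0.09 ± 0.12 without passing. CKS1B and CKS2, paralogous small subunits that bind CDK1, parted: CKS1B went from 78.0 and 83.9 to 27.6 and 24.1 CPM (−1.70 ± 0.14, adjusted p = 5.89e-08, edgeR) and CKS2 from 48.3 and 51.1 to 88.7 and 88.9 CPM (0.78 ± 0.11, adjusted p = 9.17e-05, edgeR). The Aurora kinases did likewise, AURKB going from 81.2 and 85.5 to 35.2 and 34.9 CPM and AURKA, the kinase of the spindle poles, from 171 and 181 to 262 and 257 (0.51 ± 0.11, adjusted p = 0.00405, edgeR). The call for AURKA was lost without the first control library (adjusted p = 0.0698, edgeR).

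On the APC/C side, UBE2C and FBXO5 fell while CDC20 (301 and 292 to 389 and 390.3 CPM) and PTTG1 (securin, 80.6 and 83.4 to 108 and 113 CPM) rose by 0.34 ± 0.09 and 0.37 ± 0.11. These belong to the rises of which most did not pass when any single library was left out, and CDC20 and PTTG1 were not followed one by one there. ESPL1 (separase) changed by −0.21 ± 0.12 and did not pass. KIF20A went from 76.8 and 79.5 to 126 and 122 CPM (0.61 ± 0.09, adjusted p = 0.000187, edgeR). HMMR went from 32.0 and 32.6 to 50.0 and 47.6 CPM (0.54 ± 0.15, adjusted p = 0.0258, edgeR), and DLGAP5 (HURP), which stabilises spindle microtubules, from 78.1 and 75.4 to 109.6 and 109 CPM (0.45 ± 0.13, adjusted p = 0.0275, edgeR). The control and evodiamine libraries did not overlap in any of these 3 genes, but the calls for HMMR and DLGAP5 were lost on leaving out any one of the 4 libraries, with adjusted p up to 0.152 and 0.175 (edgeR).

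Most checkpoint and kinetochore genes did not pass with evodiamine. BUB1, BUB1B, MAD2L1 and TTK changed by 0.06 to 0.09, and of these 4 none passed at an unadjusted p under 0.05 in edgeR or at an adjusted p under 0.05 in DESeq2. For BUB1 the 95% interval was −0.17 to 0.30. SPC25 was the one centromere or kinetochore member of 6 that passed in edgeR, falling by 0.79 ± 0.17, while NDC80 of the same complex changed by 0.01 ± 0.14 and NUF2 by 0.47 ± 0.16 (adjusted p = 0.0654, edgeR). DESeq2 called SPC25 lower and also NUF2 higher. CENPE, the kinetochore motor at the median of the set, changed by −0.03 ± 0.18 with an interval of −0.40 to 0.34. PLK1 stood at 279 and 274 CPM in the control and 288 and 287 with evodiamine, an interval of −0.19 to 0.19. Among the 83 other mitosis genes 25 fell and 5 rose, led upward by FAM64A (0.55 ± 0.12) and the motor KIF18A (0.54 ± 0.16). MELK, a mitotic kinase, fell by 1.52 ± 0.15 (adjusted p = 1.14e-06, edgeR) and FZR1 (CDH1), the second APC/C activator, by 1.27 ± 0.14 (adjusted p = 2.7e-06, edgeR).

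**Figure D2:**
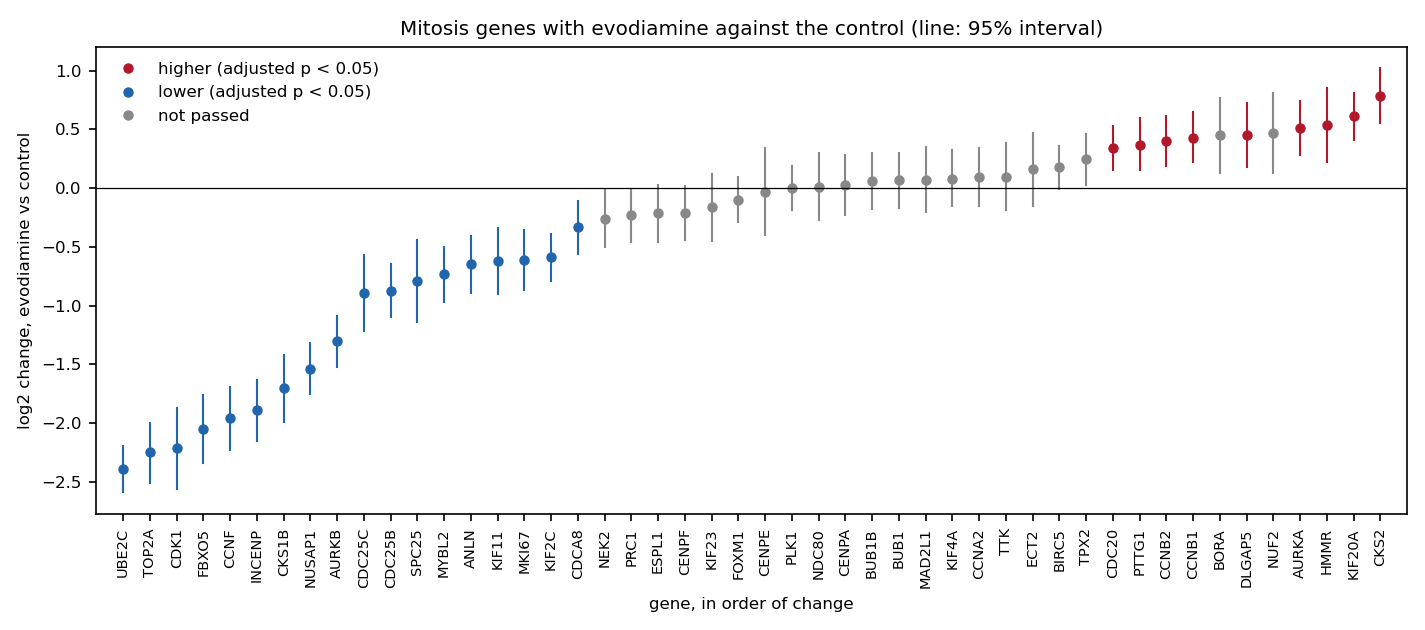
Log2 change of each member with evodiamine against the control (vertical axis), in order of change along the horizontal axis; points are edgeR estimates from 2 libraries a group, lines are 95% intervals, blue and red mark adjusted p under 0.05. UBE2C, TOP2A, CDK1 and FBXO5 lie below −2, and CKS2 at 0.78 stands highest.

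Cepharanthine and evodiamine were given at the same dose and time and can be set against each other. Relative to evodiamine, 17 members were higher with cepharanthine and 13 lower, against 8.28% and 5.79% of all genes. UBE2C was at 106 and 102 CPM with cepharanthine (2.18 ± 0.09, adjusted p = 1.01e-11, edgeR), TOP2A at 366 and 417 (2.17 ± 0.12) and CDK1 at 83.3 and 96.6 (2.04 ± 0.16). In the other direction KIF20A differed by −0.97 ± 0.09, CKS2 by −0.77 ± 0.11 and CDC20 by −0.77 ± 0.09. BUB1 did not pass, with an interval of −0.22 to 0.25. FBXO5 (1.98) and INCENP (1.82) were among the higher genes, CCNB1 (−0.72) and AURKA (−0.61) among the lower. Of the 83 other mitosis genes 21 were higher, led by MELK (1.50) and FZR1 (1.25), and 8 lower, led by FAM64A (−0.93) and PSRC1 (−0.63).

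Sanguinarine was given at a lower dose than the other 2 alkaloids, so tests against them compare the treatments as given. Against cepharanthine, 43 members were lower with sanguinarine (background 7.16%), led by CCNF (−1.01), MKI67 (−1.0), INCENP (−0.93), AURKB (−0.92) and FBXO5 (−0.86), with CENPA, the centromeric histone, at the median (−0.55). That count was 19 without the second sanguinarine library and 20 without the second cepharanthine library. Against evodiamine, 33 were lower with sanguinarine and 10 higher (background 9.19% and 11.3%). KIF20A (−1.47), CKS2 (−1.15), CCNB1 (−1.09), CDC20 (−1.07) and AURKA (−1.06) were lowest, and UBE2C (1.75), CDK1 (1.47), TOP2A (1.31), CKS1B (1.22) and FBXO5 (1.12) highest. TTK lay at the median (−0.53). Among the 83 other mitosis genes, 44 were lower than with cepharanthine, ZWINT (−1.11) and the condensin subunit SMC2 (−0.88) most. Against evodiamine 39 were lower, PSRC1 (−1.4) and FAM64A (−1.17) most, and 6 higher, FZR1 (1.16) and MELK (0.82) most.

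**Figure D3:**
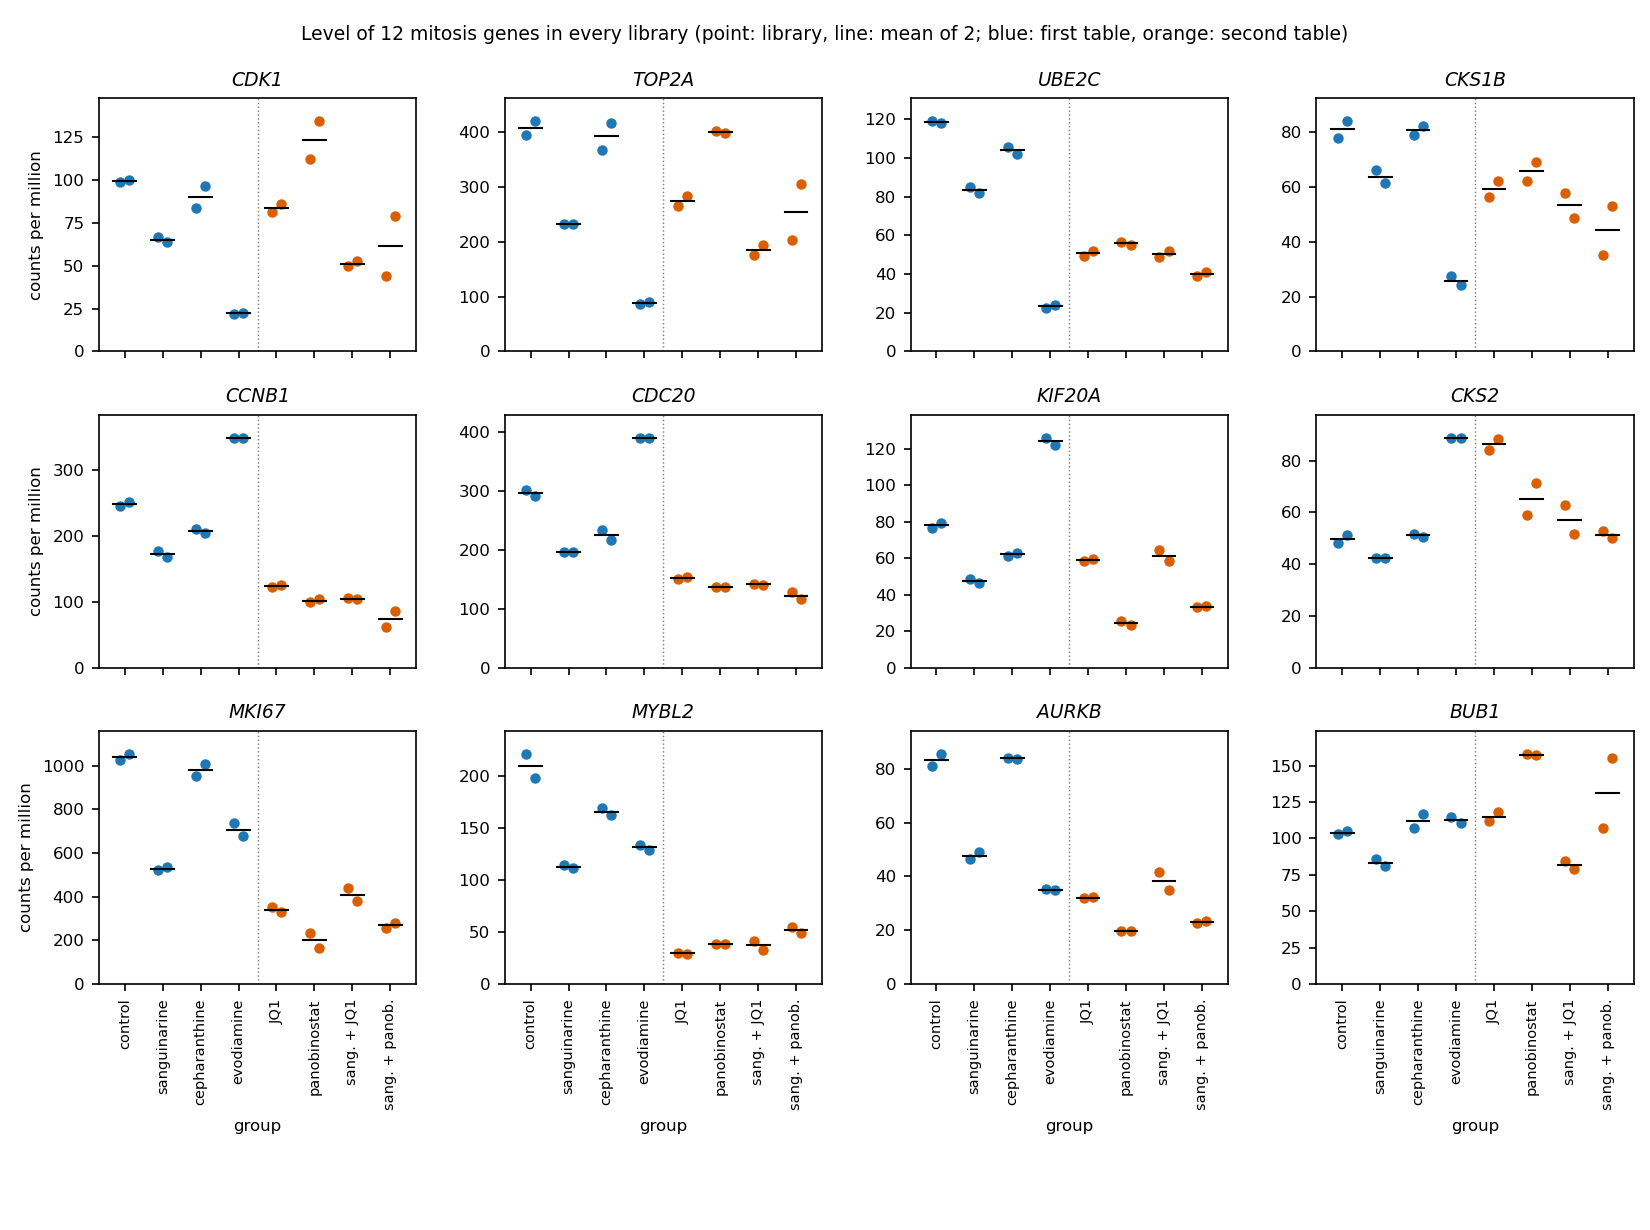
Level of 12 members in CPM (vertical axes, from 0) in the 8 groups (horizontal axes); each point is a library, each line the mean of 2, blue for the first table and orange for the second. CDK1, TOP2A, UBE2C and CKS1B are lowest with evodiamine among the groups of the first table, while CKS2 and KIF20A are highest there.

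JQ1 and panobinostat have no control within their table, so their levels are set beside the control of the first table without a test, and table and drug cannot be told apart. Both libraries lay below both controls in 42 members with JQ1 and 40 with panobinostat, and above both in 5 and 6. The median ratio of means to the control was 0.546 with JQ1 and 0.517 with panobinostat. Neither these counts nor these ratios were taken over all genes, so they give no result particular to the members. MYBL2 was lowest in both, at 0.141 and 0.184 of the control, with 221 and 198 CPM in the control, 30.2 and 29.1 with JQ1 and 38.4 and 38.9 with panobinostat. CDC25B, a phosphatase that activates CDK1, was the highest with JQ1, at 1.75 times the control (71.1 and 73.5 CPM in the control and 127 and 125 with JQ1). BUB1 was the highest with panobinostat, at 1.52 times (103 and 105 CPM and 158 and 157).

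Within the second table, JQ1 and panobinostat gave different levels of 29 members. JQ1 was higher in 19 of the 48 and lower in 10, where 26.8% and 29.1% of all genes tested differed each way. Scaling by library totals alone gave 14 higher and 12 lower, moved the median of all genes by 0.165, and turned that of the members from 0.14 to −0.03. The epithelial markers summed to 8965 and 9159 CPM with JQ1 and 5889 and 5966 with panobinostat, and the neuroendocrine markers to 7.54 and 8.03 and to 66.6 and 70.0. Their part in the result was not tested. CDC25B was at 127 and 125 CPM with JQ1 and 48.7 and 43.2 with panobinostat (1.63 ± 0.11, adjusted p = 1.38e-10, edgeR). KIF20A was at 58.2 and 59.4 and 25.7 and 23.2 CPM (1.43 ± 0.10, adjusted p = 2.58e-10, edgeR). The libraries of the groups did not overlap in the members that differed most either way, which were picked from these libraries. BUB1B, the BubR1 protein of the mitotic checkpoint complex, was lower with JQ1, at 23.4 and 21.5 CPM against 60.9 and 60.1 (−1.26 ± 0.12, adjusted p = 2.15e-08, edgeR).

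Members of one role differed in opposite directions between these drugs. Of all genes tested, 26.8% were higher and 29.1% lower with JQ1, so opposite calls within a role give no result particular to the members. Among spindle motors and microtubule proteins, KIF4A, a chromokinesin, was higher with JQ1 by 0.98 ± 0.12 and TPX2, which activates AURKA at the spindle, lower by 0.56 ± 0.10. Of the passenger complex, AURKB was higher by 0.87 ± 0.10, CDCA8 by 0.66 ± 0.11 and BIRC5 by 0.40 ± 0.09, while INCENP was lower by 0.38 ± 0.12. The central spindle pair PRC1, which bundles antiparallel microtubules, and KIF20A differed in opposite directions, PRC1 by −0.65 ± 0.11. The proliferation marker MKI67 was higher with JQ1 by 0.93 ± 0.12 and TOP2A lower by 0.38 ± 0.12. NEK2, a centrosome kinase (−0.50), and NDC80 (−0.42) were also lower, though the call for NDC80 was lost on leaving out any one of the 4 libraries. NUF2 at the median had an interval of −0.20 to 0.50. Of the 83 other mitosis genes, 35 were higher with JQ1, led by GTSE1 (1.27) and the condensin subunit NCAPG (1.16), and 21 lower, led by the cohesin protector SGO1 (−1.4) and SPC24 (−1.03), the partner of SPC25.

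**Figure D4:**
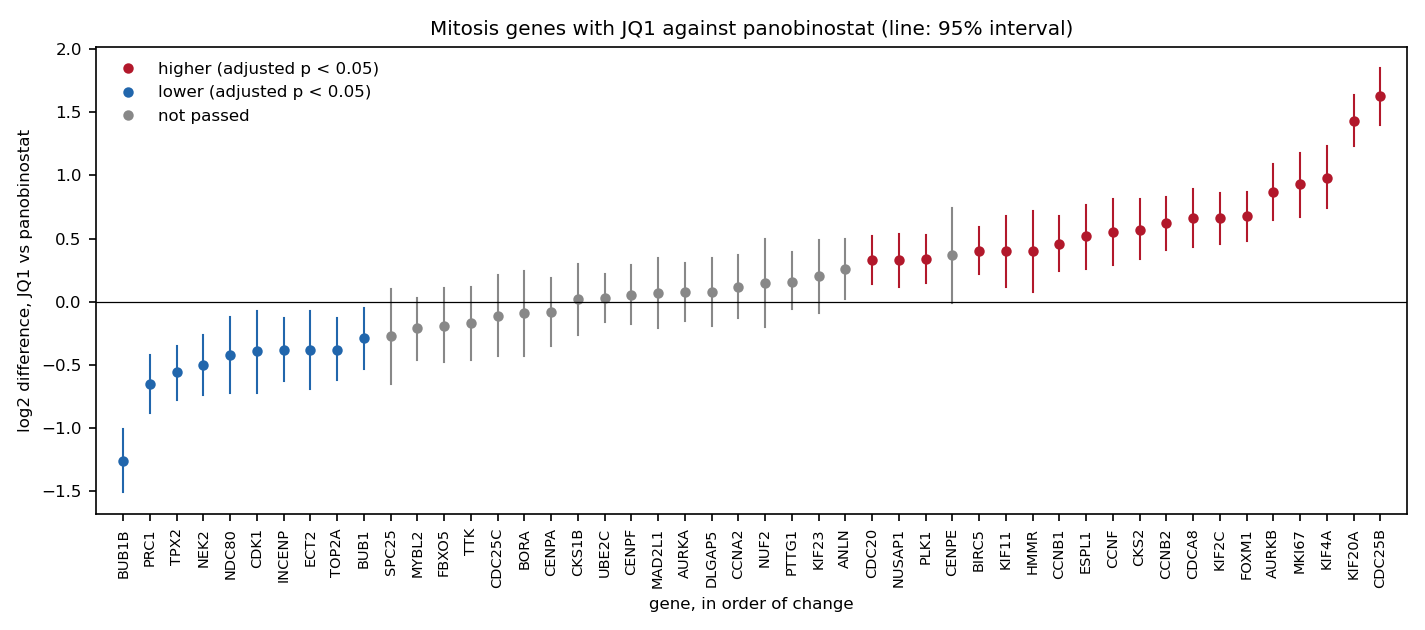
Log2 difference of each member between JQ1 and panobinostat (vertical axis; above 0 is higher with JQ1), in order along the horizontal axis; points are edgeR estimates from 2 libraries a group and lines 95% intervals, with red and blue for an adjusted p under 0.05. CDC25B (1.63) and KIF20A (1.43) stand at the upper end and BUB1B (−1.26) at the lower.

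Adding sanguinarine to JQ1 lowered 27 of the 48 members relative to JQ1 alone, against 13.8% of all genes, with a median of −0.34. The 5 epithelial markers summed to 8965 and 9159 CPM with JQ1 and to 4111 and 4382 with the combination. KRT8 had the largest fall, from 5078 and 5207 to 2190.3 and 2025 CPM, and CDH1, KRT18 and KRT19 were also lower. EPCAM was not, at 164 and 165 and at 163 and 168 CPM. The 5 immune markers, of which only CD68 passed 1 CPM, summed to 9.6 and 11.6 CPM and to 31.3 and 34.4. Their part in the result was not tested. A fit of the second table alone called 15, all lower, and without the second library of the combination 15 were lower and 2 higher. CDC25B, high with JQ1 alone, went from 127 and 125 to 59.6 and 66.3 CPM (−1.09 ± 0.11, adjusted p = 1.81e-07, edgeR). SPC25, part of the NDC80 complex, went from 6.62 and 7.71 to 3.45 and 3.87 CPM (−1.05 ± 0.19, adjusted p = 0.000241, edgeR). HMMR changed by −0.91 ± 0.15 (43.6 and 41.2 to 21.2 and 26.7 CPM), CDK1 by −0.79 ± 0.16 (81.4 and 85.6 to 49.8 and 52.4 CPM) and CKS2 by −0.67 ± 0.11 (84.2 and 88.5 to 62.9 and 51.5 CPM). In these 5 genes, picked as the largest falls in these libraries, the libraries of the combination lay below those of JQ1 alone. CCNB1, near the median, changed by −0.33 ± 0.10, a call lost without any one of the 4 libraries. MYBL2 (0.01 to 0.49), MKI67 (−0.07 to 0.44) and AURKB (−0.04 to 0.38), given as 95% intervals, did not pass. Among the 83 other mitosis genes 37 fell, NCAPG (−0.98) and the APC/C subunit ANAPC4 (−0.95) most, and 3 rose, PSRC1 (0.53) and MIS12 (0.47) most.

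Adding sanguinarine to panobinostat lowered 32 members and raised 2, against 11.4% and 11.5% of all genes, with a median of −0.43. The epithelial markers summed to 5889 and 5966 CPM with panobinostat and to 4763 and 4973 with the combination, the immune markers to 14.2 and 15.9 and to 31.7 and 43.2, and 7 neuroendocrine markers to 66.6 and 70.0 and to 107 and 143. Their part in the result was not tested. Scaling by library totals alone gave 21 lower and 4 higher. Without the first library of the combination 23 were lower and 2 higher, and without its second 37 and 4. Without the second panobinostat library 18 passed, all lower, and in a fit of these 4 libraries alone 14, all lower. CDK1 went from 112 and 134 to 43.8 and 78.7 CPM (−1.13 ± 0.16, adjusted p = 5.39e-05, edgeR), so that the combination's libraries, though far apart, both lay below panobinostat alone. The checkpoint kinase TTK went from 45.5 and 49.0 to 21.7 and 32.8 CPM (−0.92 ± 0.14, adjusted p = 0.000122, edgeR). NDC80 changed by −0.84 ± 0.14 (29.7 and 29.5 to 13.6 and 22.4 CPM), MAD2L1 by −0.83 ± 0.13 (40.1 and 47.1 to 21.0 and 32.4 CPM) and HMMR by −0.78 ± 0.15 (32.2 and 40.2 to 17.7 and 28.4 CPM). The motor KIF11, which pushes spindle poles apart, lay at the median (−0.42 ± 0.13), and its call was lost without 3 of the 4 libraries in turn. The rises were ESPL1, from 22.8 and 20.2 to 31.6 and 29.1 CPM (0.38 ± 0.12, adjusted p = 0.0292, edgeR), and KIF20A, from 25.7 and 23.2 to 33.0 and 33.8 CPM (0.34 ± 0.10, adjusted p = 0.0175, edgeR). Neither passed in a fit of the second table alone (adjusted p = 0.174 and 0.168, edgeR), nor without the second panobinostat library. In the list of 83, 33 fell, SGO1 (−1.02) and the kinase PBK (−0.84) most, and 5 rose, CENPM (0.66) and LIN37 (0.55) most.

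Sanguinarine was compared with a group lacking it 3 times, in pairs of groups that share no library. All 48 members were lower in at least 1 of the 3 comparisons, as were 25.5% of the 22263 genes tested, and 18 of 48 were lower in all 3, as were 383 genes (1.72%). These 18 were CDK1, CCNA2, CCNB1, CCNB2, CDC25C, CKS2, PLK1, NEK2, BUB1, MAD2L1, TTK, NDC80, SPC25, BIRC5, KIF11, DLGAP5, ANLN and TOP2A. They hold 3 of the 4 checkpoint genes and NDC80 with SPC25 of the outer kinetochore. Of the rest, 18 were lower in exactly 2 comparisons (6.58% of all genes) and 12 in exactly 1 (17.2%). These overlaps were not recounted without a library, also not without one of the discordant pair of sanguinarine with panobinostat. They rest in part on calls lost on leaving out single libraries, such as CCNB1 with JQ1 and KIF11 with panobinostat, as given above. ANLN, the cytokinesis scaffold anillin, fell by 0.95 ± 0.12 alone, 0.44 ± 0.12 with JQ1 and 0.75 ± 0.12 with panobinostat. Across the members, the sizes of change alone and with JQ1 ran in opposite order (Pearson r = −0.43 over 48 genes, −0.36 with panobinostat, and 0.55 between the combinations). Over all 22263 genes the same correlations were 0.21, 0.19 and 0.28. They describe genes of the same libraries, which are not independent.

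The difference between the changes was tested directly. Sanguinarine alone stands in the first table and the partners in the second. Partner drug and table can therefore not be told apart in the tests against sanguinarine alone. The change with sanguinarine was less negative, or above 0, with JQ1 than alone in 22 members, against 9.83% of all genes that differed upward, and 2 members, CDC25B and HMMR, differed the other way (8.25% of all genes). With panobinostat, 14 differed upward (7.91% of all genes) and HMMR downward (8.65%). These tests share the 4 libraries of the control and of sanguinarine alone, and the 14 are all among the 22: CCNF, PLK1, CDC20, ESPL1, AURKB, INCENP, CDCA8, KIF2C, NUSAP1, PRC1, KIF20A, MKI67, FOXM1 and MYBL2. Without the first library of sanguinarine and panobinostat, 23 members differed upward from sanguinarine alone and 1 downward, and without its second library 14 and 8.

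MKI67 changed by −1.11 ± 0.12 with sanguinarine alone, 0.19 ± 0.12 when it was added to JQ1 and 0.30 ± 0.12 when added to panobinostat. The differences from sanguinarine alone were 1.30 ± 0.17 (adjusted p = 2.56e-05, edgeR) and 1.41 ± 0.17 (adjusted p = 1.89e-05, edgeR). Its levels were 351 and 329 CPM with JQ1, 438 and 379.6 with both, 235 and 167 with panobinostat and 256 and 281 with sanguinarine and panobinostat, below the 1025 and 1053 of the control throughout. MYBL2, already low with either partner, differed by 1.28 ± 0.16 and 1.35 ± 0.16, its levels being 30.2 and 29.1 CPM with JQ1 and 41.5 and 33.1 with the combination. The passenger complex showed the same in 3 of its 4 members: AURKB differed by 1.12 ± 0.14 and 1.05 ± 0.14, INCENP by 1.00 ± 0.17 and 0.86 ± 0.17, and CDCA8 by 0.98 ± 0.15 and 0.93 ± 0.15, while BIRC5 did not pass (−0.25 to 0.28 and −0.07 to 0.46, 95% intervals). With panobinostat, CCNF differed by 1.27 ± 0.18 and KIF20A by 1.19 ± 0.14.

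HMMR, the hyaluronan-mediated motility receptor of the spindle, went the other way. It stood near the control with sanguinarine alone (−0.06 ± 0.15) and fell when sanguinarine was added to either partner, with differences of −0.85 ± 0.22 (adjusted p = 0.00922, edgeR) and −0.72 ± 0.22 (adjusted p = 0.0279, edgeR). The second of these calls was lost in 5 of the 8 cases in which 1 library was left out, with adjusted p up to 0.151 (edgeR). CDC25B did so with JQ1 (−0.86 ± 0.15, adjusted p = 0.000401, edgeR) and not with panobinostat (−0.17 to 0.45, 95% interval). CENPE, at the median, differed by 0.34 ± 0.25 with JQ1, which did not pass. Of the 83 other mitosis genes, 22 differed upward with JQ1, PSRC1 (1.61) and CENPO (1.16) most, and ANAPC4 (−0.82) downward. With panobinostat 24 did, CENPM (1.74) and ZWINT (1.17) most, and SKA2 (−0.65) and SGO1 (−0.64) differed downward.

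**Figure D5:**
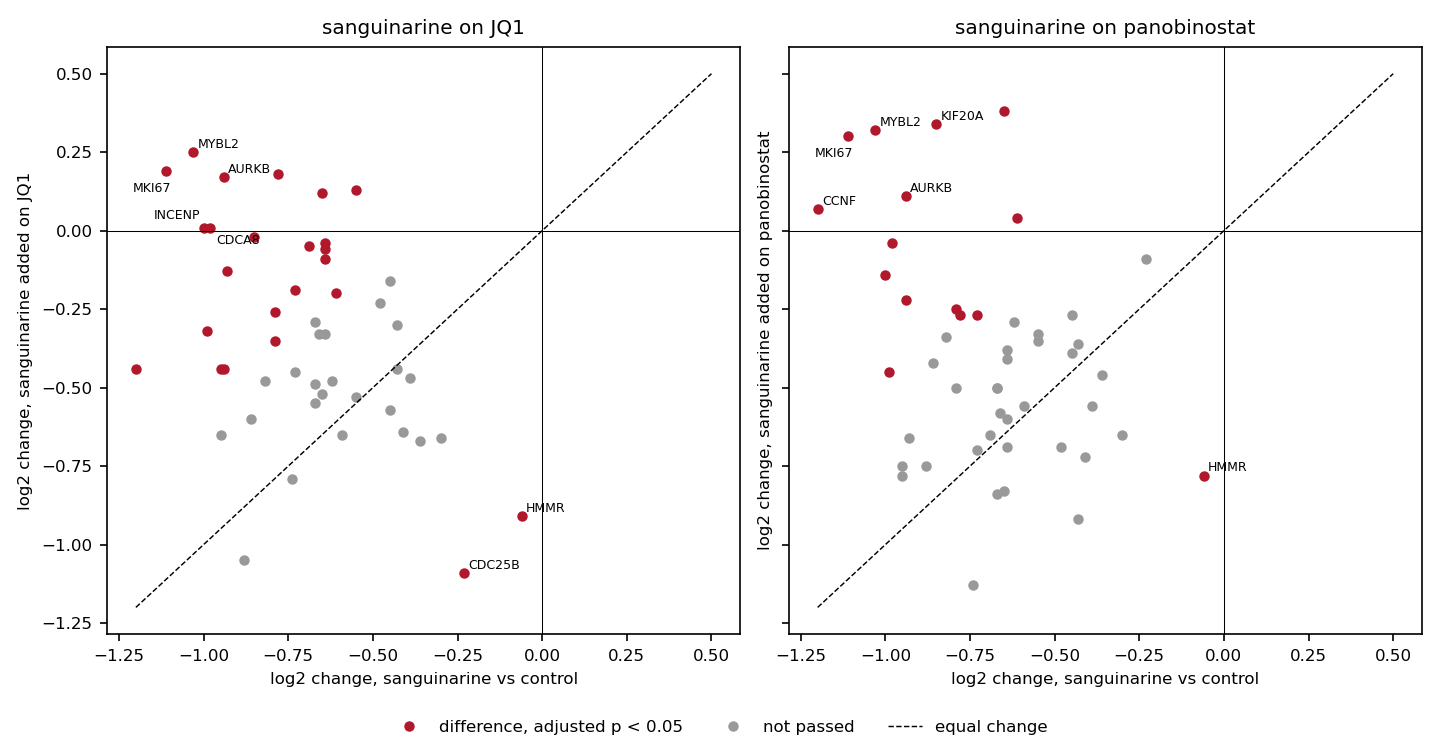
Log2 change of each member with sanguinarine against the control (horizontal axes) and on adding sanguinarine to JQ1 (left) or panobinostat (right, vertical axes); the dashed line marks equal change, and red points differ between the 2 at an adjusted p under 0.05. MKI67, MYBL2 and AURKB lie far above the line in both panels, and HMMR lies below it.

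The sanguinarine change with JQ1 against that with panobinostat differed in 4 members, BUB1B (0.61 ± 0.17), UBE2C (0.51 ± 0.13) and CENPA (0.65 ± 0.18) upward and CDC25B (−0.99 ± 0.15) downward, against 6.84% and 4.38% of all genes. Of these, UBE2C, BUB1B and CENPA did not pass in a fit of the second table alone. The count was 23 without the second library of sanguinarine and panobinostat, 9 without its first library and 2 without the second JQ1 or the first panobinostat library. CDC20 at the median had an interval of −0.19 to 0.35. In the list of 83, CKAP2L (0.64) and MIS12 (0.62) were highest of 4 upward and MAD1L1 (−0.63) was the one downward. Between the combinations themselves, 25 members were higher with JQ1 and sanguinarine than with panobinostat and sanguinarine and 6 lower, against 25.4% and 27.5% of all genes. Library totals alone gave 16 and 10, moving the median of all genes by 0.201, and a fit of these 4 libraries alone gave 11 and 1. Without the first library of sanguinarine and panobinostat 19 were higher and 11 lower, and without the second 33 and 5. KIF20A differed by 1.08 ± 0.10, AURKB by 0.94 ± 0.10, MKI67 by 0.81 ± 0.12, KIF4A by 0.79 ± 0.12 and CCNB1 by 0.72 ± 0.10. The lower ones included BUB1B (−0.65 ± 0.12), SPC25 (−0.57 ± 0.18), BUB1 (−0.47 ± 0.11), NEK2 (−0.45 ± 0.11) and TPX2 (−0.32 ± 0.10). The calls for SPC25 and TPX2 were lost without the second library of sanguinarine and panobinostat, where SPC25 differed by −0.14 and TPX2 by −0.12. TTK at the median did not pass (0.01 to 0.59, 95% interval). Among the other mitosis genes 28 of 83 were higher, PMF1 (1.33) and GTSE1 (1.14) most, and 19 lower, the APC/C subunit CDC23 (−1.14) and NSL1 (−0.93) most.

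CKS1B and CKS2 are close paralogs, and PTTG1 and KIF4A have near-identical intronless copies, so their counts depend on how reads matching several genes were treated, and neither this nor the strand setting of the counting was stated.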

How the data were processed

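RNA was sequenced from poly(A)-selected RNA of 16 NCI-H1688 libraries. The authors deposited 2 tables of gene counts and RPKM per library. Per the submitters' processing notes, reads were mapped with STAR 2.5.1 to GRCh38, with an annotation whose stated GENCODE version is a mouse release, and DESeq2 was used for the authors' comparisons. For the counting step, tool and settings were not stated. The deposited RPKM values matched those recomputed from the deposited counts and gene lengths to a relative difference of 2.0e-13, and were used for levels between genes only. Positions in the tables were not used. Promoters are RefSeq entries of GRCh38.p14, and a gene with several entries counted as holding a motif when any of them did.

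Counts were tested with edgeR 4.0.16 (R 4.3.3) by its quasi-likelihood test on all 16 libraries, with 1 term a group, TMM scaling and edgeR's own filter on low counts. Adjusted p-values are Benjamini-Hochberg values over the 22263 genes tested within each of 13 comparisons, called under 0.05. Standard errors were derived from each log2 change and its F statistic (change over root F), and intervals are 95%. The test recovered known changes planted in the evodiamine group of simulated counts, with the same spread in every group. That run covered neither a discordant pair of libraries nor a difference between changes. Comparisons stay within a table. In the 3 tests of a difference between changes, an additive offset between tables on the log2 scale cancels. A response to sanguinarine that differed between the tables would not cancel. DESeq2 1.42.0, other scalings, no filter, fits of the groups or table alone and leaving out each library were the alternatives.

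The members and all lists were chosen with earlier results of these data known. Per comparison, the text names the 5 members with the largest called change each way, the one nearest the median, members whose direction differs within their role, and the 2 largest calls each way in a list of 83 other mitosis genes. Genes named outside that rule were picked after their values were seen. The labels call the duplicates biological without giving separate cultures, so p-values measure the spread between these libraries. A count of 0 allows up to 3 reads, 0.0468 to 0.0750 CPM, for counting error only.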

Additional observations from a re-analysis of the deposited data

Results flagged for a closer look

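A difference between groups in the response to sanguinarine marked 17 values, each tested directly as a difference of log2 changes with edgeR. Against sanguinarine alone, the change on adding it to JQ1 was higher for MKI67 (1.30), MYBL2 (1.28), AURKB (1.12), INCENP (1.00) and CDCA8 (0.98), and lower for CDC25B (−0.86) and HMMR (−0.85). On adding it to panobinostat it was higher for MKI67 (1.41), MYBL2 (1.35), CCNF (1.27), KIF20A (1.19) and AURKB (1.05), and lower for HMMR (−0.72). This last call was lost in most runs that left out 1 library, as given above. Between JQ1 and panobinostat as partners, CENPA (0.65), BUB1B (0.61) and UBE2C (0.51) differed upward and CDC25B (−0.99) downward. Of all genes tested, 6.84% differed upward and 4.38% downward, so the members as a set did not stand out. CENPA, BUB1B and UBE2C did not pass in a fit of the second table alone. Levels of MKI67 and MYBL2 with either partner alone were below those of the control, across tables, and the part of that lower level in the difference was not tested. In the values against sanguinarine alone, partner drug and table cannot be told apart.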

How the results depend on the processing

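No member that passed in a comparison changed sign there under any alternative run. The median of the members turned for JQ1 against panobinostat under scaling by library totals (0.14 to −0.03), and for cepharanthine against evodiamine, where it was 0.01, to between −0.03 and −0.01 under 7 alternatives. Without the first library of sanguinarine with panobinostat it turned to −0.03 for the change with JQ1 against that with panobinostat. Counts of members called moved by over 1.5 times as follows. For cepharanthine against the control (3), DESeq2 gave 6, 12 when fitted on the groups compared, 15 when fitted on the whole first table, and leaving out both libraries of sanguinarine with panobinostat 6. For sanguinarine with JQ1 against JQ1 (27), the table alone gave 15. On adding it to panobinostat (34), the groups alone gave 14, and for the combinations against each other (31) they gave 12. For sanguinarine's change with JQ1 against that with panobinostat (4), no filter gave 8, DESeq2 8, and the groups or the table alone 1. For the other comparisons no setting but the leaving out of a library moved the count so far.

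Leaving out 1 library at a time gave 36 to 41 calls for sanguinarine against the control, 0 to 1 for cepharanthine, 18 to 20 for evodiamine, 19 to 35 for sanguinarine against cepharanthine, 33 to 38 against evodiamine and 21 to 23 for cepharanthine against evodiamine. It gave 21 to 24 for JQ1 against panobinostat, 17 to 25 for sanguinarine with JQ1 against JQ1, 18 to 41 with panobinostat and 23 to 38 between the combinations. For the differences of changes it gave 17 to 23 with JQ1, 10 to 24 with panobinostat and 2 to 23 between them. Where a group then held 1 library, that library is assumed to vary like the other groups. Of 500 such values of named members, 442 kept direction and call, 57 lost the call and 1 gained it. Of 745 under other alternatives, 717 kept both, 25 lost the call and 3 gained it.

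In the second table the titles carry the numbers 1 and 2. Deviations of same-numbered libraries correlated at −0.04 to 0.19, highest between panobinostat and its combination with sanguinarine. With 2 libraries a group this cannot show whether same-numbered libraries shared a culture or batch. With the replicate block the counts were 30 for JQ1 against panobinostat, 29 and 38 on adding sanguinarine to JQ1 and to panobinostat, 34 between the combinations, and 24, 15 and 6 for the differences of changes. Scaling by library totals moved the median of all genes by 0.135 for sanguinarine against the control, 0.116 with panobinostat, 0.165 for JQ1 against panobinostat and 0.201 between the combinations. Depth did not limit any member, all being far above the floor of 3 reads. The limits are 2 libraries a group, the discordant pair of sanguinarine with panobinostat, and the lack of a control in the second table.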
